A study of Mus musculus with 8 samples.

Results

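The enteroendocrine lineage transcription factors are the nuclear proteins that turn an intestinal progenitor into a hormone-producing cell. The members examined here were 8 listed genes, Neurog3, Neurod1, Insm1, Pax4, Pax6, Isl1, Nkx2-2 and Rfx6, among 14199 genes that had a value in the series. Their RNA was measured by bulk RNA sequencing of mouse small intestinal crypt organoids, which are epithelial cultures grown from isolated crypts in Matrigel with IntestiCult medium. There were 4 WT samples and 4 samples from MG53-TG, a line with global overexpression of MG53 compared with its wild type littermates. The age of the mice, the promoter of the transgene and whether each sample came from a separate mouse are not given in the sources used here, so every p-value below measures only the spread between these samples. The study also describes organoids from MG53-TG crossed to an Lgr5 reporter line, but the labels of these samples name only WT and MG53-TG.

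In the intestinal crypt, Notch signalling between neighbouring cells keeps most progenitors on the absorptive path, and cells that escape it become secretory. A small fraction of those briefly express Neurog3, a basic helix-loop-helix factor without which the intestine forms no enteroendocrine cells. Neurog3 switches on Neurod1, Insm1, Pax4, Nkx2-2 and other factors, and these with Pax6, Isl1 and Rfx6 direct the hormone repertoire of the maturing cell. Neurog3 is transient, whereas granins and hormones are products of later, differentiating cells. In a bulk sample, a smaller number of such cells and less RNA per cell cannot be told apart.

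The deposited files list transcript events rather than genes. An event is a transcription start (a start row), a transcription end (an end row), a skipped exon or another splicing choice, and its value is the FPKM, a read level scaled by transcript length and by the mapped reads of the sample, of the transcripts that carry it. The value of a gene was the sum of its start rows, or of its end rows where these had the higher mean. FPKM is scaled by length, so levels can be set side by side between genes. A factor listed at 0 had no row of the kind used for its value in that sample, although it could have rows of another kind, so a 0 does not show that its RNA was absent.

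The gene targeted by the transgene served as the check of the labels. Trim72, which encodes MG53, was listed at 0 FPKM in each WT sample, whereas MG53-TG samples 1 to 4 had 16.4, 27.4, 31.9 and 36.5 FPKM. The start rows summed to between 266451 and 270276 FPKM in the WT samples and between 265539 and 278029 FPKM in the MG53-TG samples. Read depth is not known from these values. MG53-TG samples 1 and 2 stood apart from samples 3 and 4 in some genes, such as the stem cell markers Olfm4, at 50.1 and 57.7 against 6.07 and 0.948 FPKM, and Smoc2, at 79.4 and 84.8 against 28.7 and 19.1 FPKM, and the enterocyte marker Krt20, at 81.6 and 76.8 against 186 and 198 FPKM. The labels give no reason for this, so the members were also fitted without each of these pairs.

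Of the 8 factors, 6 had a value, 3 of them at a mean of at least 0.5 FPKM, and none of the 6 passed the test between the groups. The factor that starts the programme, Neurog3, was the highest of the 6 members with a value in every sample. It averaged 3.81 ± 1.20 FPKM (SD, n = 4) in WT and 3.08 ± 0.592 FPKM (SD, n = 4) in MG53-TG. Across all genes fitted with limma, 4883 of 10984 genes, 44.5%, reached an adjusted p of 0.05 or below. Of all genes fitted, 1714 (15.6%) were higher in MG53-TG and 3169 (28.9%) were lower, a split that became 2233 and 2209 under median-of-ratios scaling and 2036 and 2565 under quantile normalization. Without the filter on low values the share was 35.1% of 14199 genes, and it was 39.4% among genes with a mean of 2 to 5 FPKM, where Neurog3 lies. The number of members called was 0, the number with an unadjusted p below 0.05 was 0, and the number whose groups did not overlap was 0, whereas 44.5% of the genes fitted had groups that did not overlap. Of the 6 log2 fold changes, 3 were above 0 and 3 below, with a median of 0.04 beside -0.17 over all genes fitted. These medians are not on equal terms. The fold changes were taken on FPKM + 1, which draws those of low genes toward 0, and 3 of the 6 came from the fit without the filter. A median-of-ratios scaling moved the median of all genes up by 0.16 and a quantile normalization by 0.11.

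**Figure D1:**
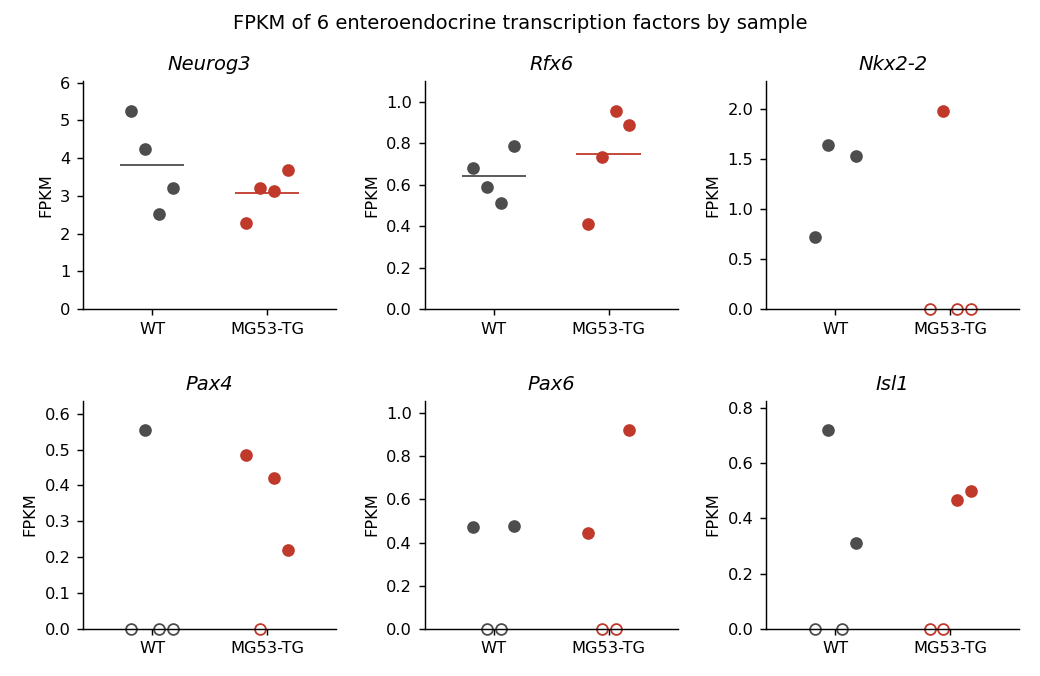
Level in FPKM (vertical axis, starting at 0 and scaled for each gene) of 6 enteroendocrine transcription factors in 4 WT samples (grey) and 4 MG53-TG samples (red). Each filled point is 1 sample, an open point is a sample listed at 0, a line is the mean of a group with no sample at 0 or missing, and WT sample 3 is left out for Nkx2-2 as missing. The groups overlap in all 6 panels, and Nkx2-2 is listed at 0 in 3 of 4 MG53-TG samples.

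Neurog3 lies on chr10:62133090-62134763 (GRCm38, forward strand) and has 2 exons in its longest annotated transcript. It was listed at 5.25, 4.25, 2.51 and 3.22 FPKM in WT samples 1 to 4 while MG53-TG samples 1 to 4 had 2.27, 3.22, 3.14 and 3.69 FPKM. WT samples 1 and 2 were above every MG53-TG sample, and WT samples 3 and 4 lay inside the MG53-TG range. The log2 fold change on the FPKM + 1 scale was -0.22 (SE 0.20, 95% interval -0.67 to 0.23, limma adjusted p = 0.403), and the exact two-sided permutation test over the 70 relabellings of the samples gave p = 0.343. The interval therefore includes both no change and a fall of up to 0.67 on the log2 scale. Leaving out each sample in turn gave values from -0.36 to -0.08, and the value was -0.34 without MG53-TG samples 3 and 4 and -0.09 without samples 1 and 2.

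All of the Neurog3 start signal came from 1 start row, which began at position 62133090, the annotated start of the gene. The end rows divided this signal by where the second exon begins, and these bases are shown because that choice decides whether the annotated start codon is kept. The second exon of the transcript Neurog3-201 begins at 62133462, and the start codon occupies positions 62133463 to 62133465. A later start at 62133576 belongs to the annotated transcript Neurog3-202 and leaves out 114 bases. A start at 62133594, which leaves out 132 bases, is in no annotated transcript. The stretch chr10:62133462-62133593 on the forward strand, from the GENCODE M21 transcripts, is printed with capitals marking the start codon and the AG that precedes each of the later starts.
Neurog3 second exon: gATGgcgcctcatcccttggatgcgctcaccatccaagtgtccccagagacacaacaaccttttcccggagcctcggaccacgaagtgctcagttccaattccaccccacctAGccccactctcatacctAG
The annotated start codon of Neurog3-202 lies further along the same exon, at positions 62133748 to 62133750, which is 285 bases and so 95 codons after the first, in the same frame.

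Transcripts that kept the start codon of Neurog3-201 made up most of the Neurog3 end signal in every sample. Their share of the end row FPKM was 100%, 72.7%, 100% and 87.5% in WT samples 1 to 4. In MG53-TG samples 1 to 4 it was 97.8%, 82.9%, 68.8% and 100%. The start at 62133576 made up 12.5% in WT sample 4 and 2.19%, 17.1% and 31.2% in MG53-TG samples 1, 2 and 3, and the remaining samples had no such row. The start at 62133594 was listed only in WT sample 2, at 27.3%. The shares overlapped between the groups, and they rest on the estimated FPKM of a gene of a few FPKM, so they are given as a description.

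**Figure D2:**
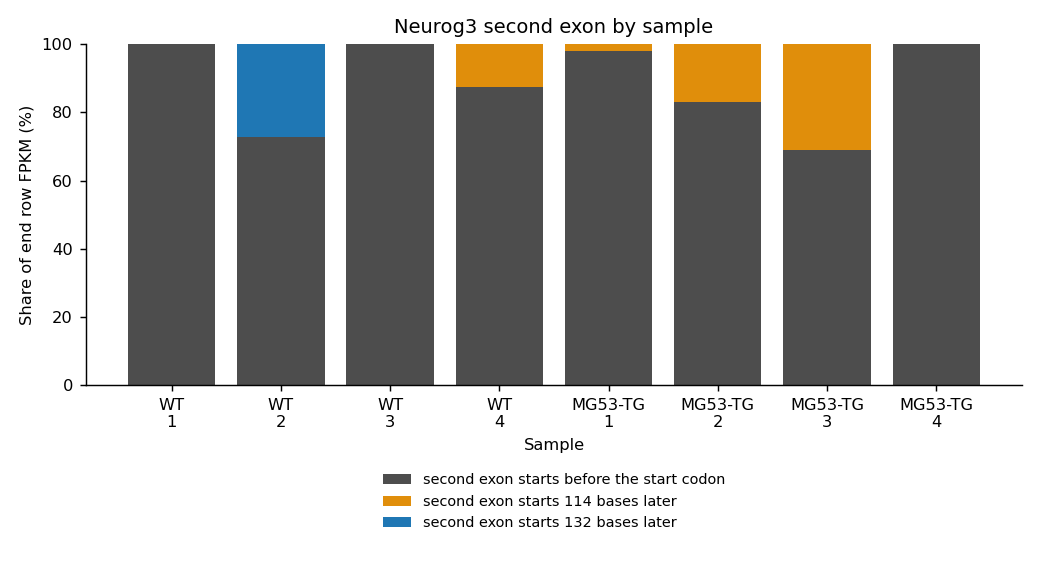
Share of the Neurog3 end row FPKM (vertical axis, %) by where the second exon begins, for each of the 8 samples (horizontal axis). Grey is the start that keeps the annotated start codon, orange the start 114 bases later and blue the start 132 bases later, and grey is the largest part in all 8 samples, with its lowest share, 68.8%, in MG53-TG sample 3.

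Rfx6, a winged-helix factor needed for several enteroendocrine hormones, was the only other member with a value above 0 in all 8 samples. Its gene lies on chr10:51677756-51730432 (forward strand). The level was 0.683, 0.591, 0.511 and 0.786 FPKM in WT samples 1 to 4, against 0.410, 0.734, 0.957 and 0.890 FPKM in the MG53-TG samples in the same order. The lowest and the highest of the 8 values were both in MG53-TG. The means were 0.643 ± 0.118 FPKM (SD, n = 4) and 0.747 ± 0.244 FPKM (SD, n = 4). This gave a log2 fold change of 0.08 (SE 0.14, 95% interval -0.24 to 0.40, limma adjusted p = 0.670), and the exact permutation test gave p = 0.543. Without MG53-TG samples 3 and 4 its sign turned, to -0.07. Rows for the skipped exon at chr10:51711981-51712094 carried the same FPKM as the start row in each sample, so the listed transcripts all included that exon. The end row was at 0.665, 0.463 and 0.494 FPKM in WT samples 1, 2 and 4, and it was not listed in WT sample 3. MG53-TG samples 1 to 4 had 0.226, 0.677, 0.733 and 0.704 FPKM for this row, which was below the start row in each sample that had it.

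Nkx2-2, a homeodomain factor that acts downstream of Neurog3, gave the widest difference of the 6 members, and this difference did not pass the test. The gene lies on chr2:147177546-147194243 (reverse strand). It was listed at 0.723, 1.64 and 1.53 FPKM in WT samples 1, 2 and 4, while WT sample 3 had no row and was treated as missing because the other WT samples were above 0.5 FPKM. In MG53-TG it was listed at 1.98 FPKM in sample 2 and at 0 in samples 1, 3 and 4. The 1 MG53-TG sample with a value was the highest of all. The log2 fold change was -0.78 (SE 0.41, 95% interval -1.74 to 0.18, limma adjusted p = 0.159), with an exact permutation p of 0.229 over 35 relabellings. Without MG53-TG sample 2 the log2 fold change was -1.17 and the limma adjusted p was 0.00405, so this one sample decides the call. Without MG53-TG samples 1 and 2 the value was also -1.17 (limma adjusted p = 0.00839), and without samples 3 and 4 it was -0.39 (0.583). With all 4 MG53-TG samples kept and WT sample 3 set to 0, the difference was -0.49 on the log2 scale (limma adjusted p = 0.394).

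The Nkx2-2 rows themselves were not uniform. A start row at chr2:147194957-147195180, listed at 0.723 FPKM in WT sample 1, 1.64 in WT sample 2 and 1.20 in MG53-TG sample 2, matched no annotated exon and lay outside the annotated gene. Start rows on annotated exons were listed in WT sample 4, at 0.870 and 0.659 FPKM, and MG53-TG sample 2 had one at 0.782 FPKM. An end row at 0.493 FPKM was listed in MG53-TG sample 3, so that sample was not without Nkx2-2 signal although its start rows were at 0. With annotated boundaries only, the difference was -0.65 on the log2 scale (limma adjusted p = 0.115). An antisense gene, Nkx2-2os, overlaps this locus, and since it is not stated that reads were assigned by strand, their signals cannot be told apart.

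Pax4, Pax6 and Isl1 were below a mean of 0.5 FPKM, and their tests came from the fit without the filter. Pax4, a paired-box repressor of early endocrine precursors on chr6:28442334-28449353 (reverse strand), was listed at 0.554 FPKM in WT sample 2 and at 0 in the other WT samples. In MG53-TG it was listed at 0.485, 0 and 0.422 FPKM in samples 1, 2 and 3, and at 0.219 FPKM in sample 4. On the log2 scale the difference was 0.18 (SE 0.18, 95% interval -0.24 to 0.60, limma adjusted p = 0.470). A row for the internal exon at chr6:28445113-28445238 was listed in all 4 MG53-TG samples, at 0.485, 0.127, 0.462 and 0.266 FPKM, and in WT only in sample 1, at 0.0316 FPKM. That row is a skipping event, and WT sample 2, with the highest Pax4 start row, had none, so it is no measure of the whole gene.

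Pax6, a paired-box and homeodomain factor that binds hormone gene promoters, lies on chr2:105668900-105697364 (forward strand) and has 26 annotated transcripts. Its end rows were listed at 0.470 and 0.477 FPKM in WT samples 1 and 4 while MG53-TG samples 1 and 4 had 0.446 and 0.921 FPKM, with 0 in samples 2 and 3 of both groups. The difference on the log2 scale was 0.09 (SE 0.25, 95% interval -0.48 to 0.66, limma adjusted p = 0.802). From start rows only it was -0.27, the largest start rows being 0.419 FPKM in WT sample 3 and 0.371 FPKM in WT sample 4, with none above 0.0130 FPKM in MG53-TG, so the sign depends on which end of the transcript is counted. An alternative exon inserts 42 bases, in capitals, into the DNA-binding paired domain, and it is shown because it separates the 2 main Pax6 protein forms. It lies at chr2:105684751-105684792 and is printed from transcript Pax6-201 with 15 bases of the neighbouring exon on each side.
Pax6 alternative exon: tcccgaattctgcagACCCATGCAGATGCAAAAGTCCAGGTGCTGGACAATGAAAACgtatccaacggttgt
In WT sample 4, transcripts with the exon were listed at 0.164 FPKM and transcripts that skip it at 0.313 FPKM. In every other sample the row that keeps the exon was not listed, and the row that skips it was at 0.0130 FPKM or less where listed. A start row whose exon ends with these 42 bases was at 0.0100 FPKM or less where listed. A comparison of the 2 forms above those levels was thus possible in WT sample 4 alone.

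Isl1, a LIM-homeodomain factor of hormone-producing cells, lies on chr13:116298281-116309689 (reverse strand). Its start row was listed at 0.720 and 0.310 FPKM in WT samples 2 and 4 while MG53-TG samples 3 and 4 had 0.467 and 0.50 FPKM, with 0 in the other 4 samples. Its log2 fold change was -0.01 (SE 0.22, 95% interval -0.52 to 0.50, limma adjusted p = 0.981). Its sign turned under a pseudocount of 0.1, median-of-ratios scaling and quantile normalization, and it was -0.29 without MG53-TG samples 3 and 4 and 0.28 without samples 1 and 2. A row for the last but one exon was listed more widely. It was at 0.792, 0.767 and 0.367 FPKM in WT samples 2, 3 and 4 while MG53-TG samples 2, 3 and 4 had 0.0960, 0.562 and 0.557 FPKM. Isl1 signal was thus listed in 3 samples of each group once all rows were read. This exon has an annotated shorter form that lacks its first 69 bases, given here in capitals with the next 15 bases, from the reverse strand of chr13:116301710-116301778 in transcript Isl1-201.
Isl1 exon difference: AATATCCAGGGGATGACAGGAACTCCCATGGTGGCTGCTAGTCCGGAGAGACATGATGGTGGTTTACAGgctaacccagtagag
The short form was at 0.0125 FPKM in WT sample 4 and 0.0147 FPKM in MG53-TG sample 3, beside 0.367 and 0.562 FPKM for the long form in the same samples.

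Neurod1 and Insm1, a basic helix-loop-helix factor and a zinc-finger repressor that act directly after Neurog3, could not be measured. Insm1 is a single-exon gene on chr2:146221921-146225020, and it had no row in any sample. The event rows almost never cover such genes, since only 26 of 1331 single-exon protein-coding genes, 1.95%, had any row, against 12790 of 20620 multi-exon genes, 62.0%. Neurod1 lies on chr2:79452521-79456751. The rows that carry its identifier, which hold 0.0770 FPKM and occur in no sample but WT sample 4, matched exons of the neighbouring gene Cerkl and gave Neurod1 no value. Their missing values say nothing about whether either gene was expressed.

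Within the 6 measured members the order of levels was led by Neurog3, whose lowest value, 2.27 FPKM, was above the highest value of any other member, 1.98 FPKM for Nkx2-2 in MG53-TG sample 2. Rfx6 and Nkx2-2 overlapped, and so did Pax4, Pax6 and Isl1. The 6 values summed to 7.13, 7.76, 3.02 and 6.32 FPKM in WT samples 1 to 4 and to 3.61, 5.93, 4.99 and 6.22 FPKM in MG53-TG samples 1 to 4. The sum of WT sample 3 is incomplete, because Nkx2-2 was missing there and adds nothing to it. Nkx2-2 also added nothing in MG53-TG samples 1, 3 and 4, where it was counted as 0. The groups overlapped, with WT sample 3 below all 4 MG53-TG sums. The other 3 WT sums, 6.32 to 7.76 FPKM, were above them, the closest pair being 6.32 and 6.22 FPKM. Neurog3 supplied 73.7%, 54.8%, 83.1% and 50.9% of the sum in WT samples 1 to 4 and between 54.2% and 63.0% in MG53-TG. The number of members with a value above 0 was 4, 5, 2 and 5 in WT samples 1 to 4. In MG53-TG samples 1 to 4 it was 4, 3, 4 and 5. Rows of another kind are not in this count, such as those of Isl1 and Pax6 in WT sample 3.

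The genes upstream of Neurog3 were read from a list of 17 secretory progenitor and Notch genes, of which 12 were fitted. Of these, 2 rose and 7 fell, with a median log2 fold change of -0.54. Over all genes fitted, 44.5% were called, 15.6% higher and 28.9% lower, and the difference of this list from those shares was not tested. Dll1, the Notch ligand that secretory progenitors display, rose from 4.79, 3.69, 3.81 and 4.11 FPKM in WT to 10.5, 9.68, 6.84 and 8.02 FPKM in MG53-TG (log2 fold change 0.93, SE 0.15, limma adjusted p = 0.00134). Numb, an inhibitor of Notch, also rose (log2 fold change 0.80, SE 0.13, limma adjusted p = 0.00181), from 10.5 to 18.8 FPKM on average. From its start rows only, the Numb value was 0.67 with a limma adjusted p of 0.401. The receptor Notch1 fell from between 6.57 and 7.53 FPKM to between 1.21 and 4.00 FPKM (log2 fold change -1.19, SE 0.25, limma adjusted p = 0.00550).

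The Notch target Hes1, a repressor of secretory fate genes, did not pass the test. It was listed at 31.9, 32.3, 32.5 and 36.3 FPKM in WT samples 1 to 4 while MG53-TG samples 1 to 4 had 36.9, 36.0, 26.0 and 20.9 FPKM. MG53-TG samples 1 and 2 were near the highest WT value and samples 3 and 4 below the lowest. The log2 fold change was -0.18 (SE 0.18, limma adjusted p = 0.434) and turned to 0.00278 under median-of-ratios scaling. It was 0.13 (limma adjusted p = 0.265) without MG53-TG samples 3 and 4 and -0.49 (0.00986) without samples 1 and 2. Sox9, a crypt progenitor factor, fell to 10.4, 10.4, 3.59 and 2.70 FPKM from between 14.7 and 16.6 FPKM (log2 fold change -1.29, SE 0.37, limma adjusted p = 0.0201). When MG53-TG sample 3 was left out this call was lost (limma adjusted p = 0.0546), while the value, -1.10, stayed about as large. Spdef, which directs goblet and Paneth cells, fell from between 1.48 and 2.49 FPKM to between 0.189 and 0.845 FPKM (log2 fold change -0.89, SE 0.18, limma adjusted p = 0.00471). Gfi1, which holds back the endocrine programme in goblet and Paneth precursors, was listed at 0.437 and 0.544 FPKM in WT samples 1 and 4 and at 0 elsewhere (limma adjusted p = 0.177). Atoh1, the master factor of all secretory cells, is a single-exon gene and had no row.

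A list of 20 other endocrine transcription factors had 7 genes fitted, of which 0 rose and 4 fell, with a median log2 fold change of -0.39. The count called was 2 with absent rows as 0 and 2 with the replicate number as a block. Over all genes fitted, 44.5% were called, 15.6% higher and 28.9% lower, so 4 of 7 is no result about the list. Foxa2, a forkhead factor of hormone cells, was listed at 2.41, 2.85, 2.28 and 1.36 FPKM in WT and at 0.834, 0.334, 0 and 0 FPKM in MG53-TG (log2 fold change -1.34, SE 0.24, limma adjusted p = 0.00228). Its relative Foxa1 was at 6.90, 8.32 and 7.54 FPKM in WT samples 2 to 4 while MG53-TG samples 1 and 2 had 2.55 and 3.74 FPKM, with the other 3 samples treated as missing (log2 fold change -1.06, SE 0.19, limma adjusted p = 0.00713). With those 3 set to 0, the Foxa1 value was -1.31 with a limma adjusted p of 0.223, and with the replicate number as a block it was -0.74 with a limma adjusted p of 0.172. Tox3 fell from between 6.41 and 7.74 FPKM to between 1.82 and 4.76 FPKM (log2 fold change -0.90, SE 0.21, limma adjusted p = 0.00947). Sox4, a single-exon gene, had 0.463 FPKM in WT sample 4 and no row elsewhere.

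**Figure D3:**
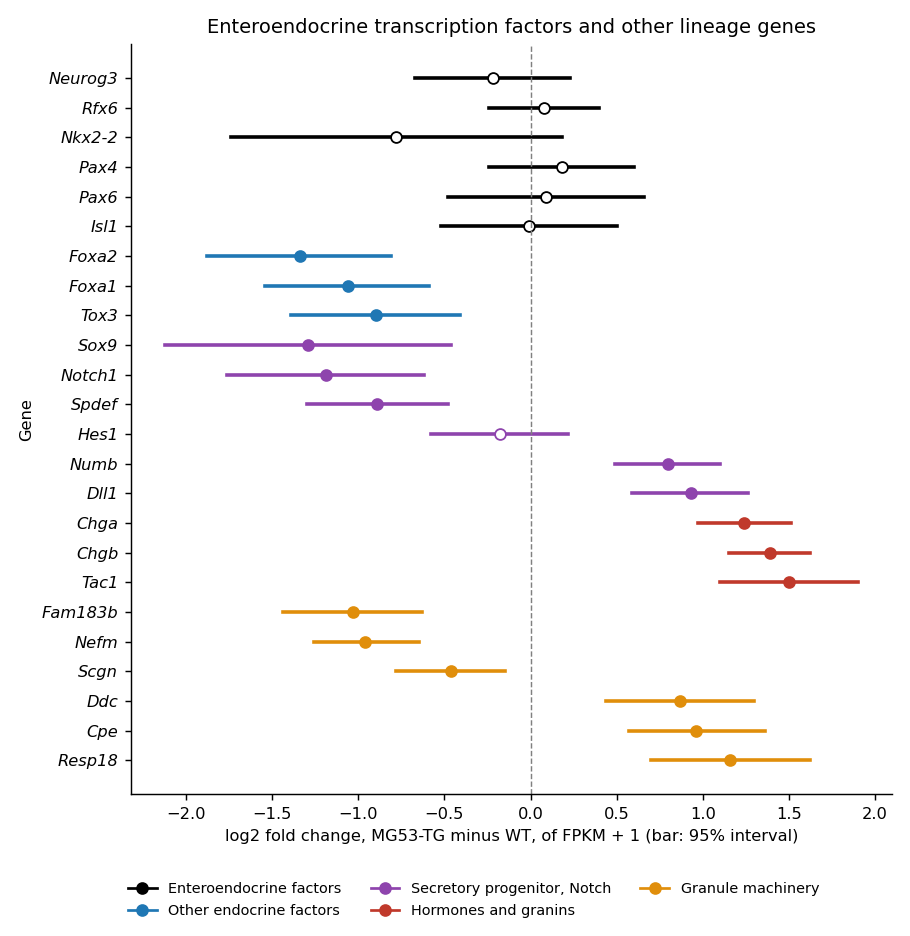
Log2 fold change of FPKM + 1, MG53-TG minus WT (horizontal axis), of the 6 measured enteroendocrine factors and of named genes from 4 other lineage lists (vertical axis), with bars for the 95% interval from limma. Filled points had an adjusted p of at most 0.05. Adding 1 to the FPKM draws the values of low genes toward 0. All 6 enteroendocrine factors are open and their intervals include 0, while Chga, Chgb, Tac1 and Resp18 lie above 1 and Foxa2, Foxa1, Sox9, Notch1 and Fam183b below -1.

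The products of the mature cell were read from 18 hormone and granin genes, of which 14 were fitted. Of these, 5 rose and 0 fell, with a median log2 fold change of 0.13, and a granin under the filter, Scg3, fell in the fit without it. Over all genes fitted, 44.5% were called, 15.6% higher and 28.9% lower. The count called, 5 of 14, is not above that share, so it is no result about the list. Whether the balance of directions differs from all genes was not tested. Chga, the granin that marks enteroendocrine cells, was listed at 17.6, 19.5, 13.9 and 19.0 FPKM in WT and at 39.3, 43.4, 41.9 and 45.3 FPKM in MG53-TG (log2 fold change 1.24, SE 0.12, limma adjusted p = 8.43e-05). Chgb was at 91.6, 103, 92.0 and 101 FPKM in WT and 213, 260, 273 and 278 FPKM in MG53-TG (log2 fold change 1.39, SE 0.10, limma adjusted p = 2.33e-05). Tac1, which encodes substance P and is made by enterochromaffin cells, rose from 9.19, 6.94, 6.79 and 10.1 FPKM to 19.4, 23.4, 30.7 and 27.4 FPKM (log2 fold change 1.50, SE 0.17, limma adjusted p = 0.000258). The rest of those that rose were Tph1, the first enzyme of serotonin synthesis, at 0.69, and Gip, at 0.50 on the log2 scale. The remaining 9 genes fitted did not pass the test, among them Pyy at -0.64 (limma adjusted p = 0.0606), Gcg at -0.49 (0.236) and Scg5 at -0.34 (0.102). Scg3 was at 0.704, 0.871, 0.845 and 0.804 FPKM in WT and at 0, 0, 0 and 0.578 FPKM in MG53-TG (log2 fold change -0.69, limma adjusted p = 0.0102). Pyy, Gcg, Scg5 and Scg3 were picked out after their values were seen. The number of hormones and granins called was 3 when only end rows were used.

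The granule and neuroendocrine machinery held 29 genes, 19 of them fitted, with 6 higher, 3 lower and a median log2 fold change of 0.05. This count, 9 of 19, is near the 44.5% called over all genes fitted, so it is no result about the list. The higher genes were led by Resp18, a granule protein, at 1.16 (SE 0.20, limma adjusted p = 0.00220), by the prohormone-trimming enzyme Cpe at 0.96 (SE 0.17, limma adjusted p = 0.00266) and by the serotonin-synthesis enzyme Ddc at 0.87 (SE 0.19, limma adjusted p = 0.00657). From end rows only, Ddc was at 0.26 with a limma adjusted p of 0.243. Those that fell were Fam183b at -1.03, the neurofilament gene Nefm at -0.96 and the calcium sensor Scgn at -0.46, with limma adjusted p values of 0.00201, 0.000723 and 0.0241. The Scgn call was lost under median-of-ratios scaling, at -0.33, and quantile normalization, at -0.36, with limma adjusted p values of 0.120 and 0.122. Without MG53-TG samples 1 and 2 it was lost at -0.29 (0.0732). It was also lost with the fold about as large under the replicate block, at -0.46 (0.0501). The same held without WT sample 1, 3 or 4, at -0.46, -0.45 and -0.47 (0.0570, 0.0561 and 0.0533).

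Set beside the factor that starts the lineage, Chga separated the groups where Neurog3 did not. The ratio of Chga to Neurog3 FPKM was 3.35, 4.59, 5.55 and 5.91 in WT samples 1 to 4. In MG53-TG samples 1 to 4 it was 17.4, 13.5, 13.3 and 12.3. Every MG53-TG ratio was above every WT ratio. This pair was picked after its values were seen, so the ratio is a description and the difference between the 2 genes' changes was not tested.

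**Figure D4:**
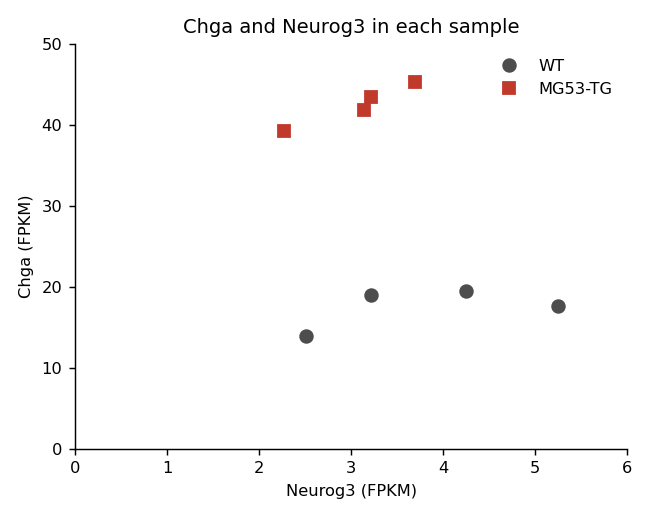
Chga against Neurog3 in each sample, both in FPKM on linear axes from 0, with WT as circles and MG53-TG as squares. The MG53-TG samples sit between 39.3 and 45.3 FPKM of Chga and the WT samples between 13.9 and 19.5, over overlapping ranges of Neurog3.

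Other cell types moved between the groups beside these results, and their part in them was not tested. All 12 of 12 enterocyte markers rose, with summed levels of 913 to 1089 FPKM in WT and 11602 to 12783 FPKM in MG53-TG. Stem cell markers fell in 7 of 8 genes fitted, from sums of 536 to 723 FPKM to 61.8 to 314 FPKM, goblet markers in 5 of 7 and Paneth markers in 6 of 7. Of the 7 tuft cell markers with a value, 0 reached the filter. Of 12 enteric neuron and glia markers only 4 had a value, and Elavl3, Elavl4, Tubb3 and Sox10, which define those cells, had no row in any sample. The summed level of those 4 was 18.3 to 21.7 FPKM in WT and 27.1 to 47.8 FPKM in MG53-TG. Most of it was Erbb3, at 17.1 to 20.5 FPKM in WT and 22.1 to 37.2 FPKM in MG53-TG. Of the 3 genes fitted 2 rose, Erbb3 and S100b, the latter from 0.238 to 6.30 FPKM on average. Of 10 mesenchyme markers 5 had a value, with sums of 1.80 to 3.24 FPKM in WT and 1.31 to 5.58 FPKM in MG53-TG. Of the 3 of these fitted, 2 were called higher, Col1a2 and Col3a1, which were listed at 0 in every WT sample, but MG53-TG sample 1 had no row for either and was treated as missing, and with it at 0 the groups overlap. Of 10 immune markers 4 had a value, with sums of 3.77 to 9.24 FPKM in WT and 0.609 to 1.47 FPKM in MG53-TG, and the 1 gene fitted, Cd68, fell. Of 6 pancreatic islet markers, Iapp alone had a value. Of 6 epithelium markers, 1 rose and 4 fell, with sums of 1881 to 2216 FPKM in WT and 1569 to 1678 FPKM in MG53-TG, and Epcam, the remaining one, was at 398 to 490 FPKM in WT and 410 to 507 FPKM in MG53-TG.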

How the data were processed

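The authors trimmed reads with Cutadapt 1.9.1, mapped them to mm10 with HISAT2 2.0.1 and list HTSeq 0.6.1, and they deposited FPKM per transcript event for each of the 8 samples. The tool that made the event rows is not given in the sources used here. The members and gene lists were chosen with earlier results of these data known.

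Of 128369 distinct events of 20 types, 88.9% matched exon boundaries of the named gene in GENCODE M21 (GRCm38), 5.69% matched another gene and were given to it, and 4.65% matched none. Where a gene had no row in a sample, the value was treated as missing if the rest of the group had a median of 0.5 FPKM or more, and as 0 otherwise. Groups were compared with limma 3.58.1 (R 4.3.3) on log2(FPKM + 1) for genes averaging 0.5 FPKM or more, and p-values were adjusted by Benjamini-Hochberg over all genes fitted, at a threshold of 0.05. The script was tested on simulated data. FPKM are estimates, the smallest being 1e-06, so the depth is unknown and counting intervals were not computed. Named genes were the members, Trim72, up to 3 genes with the largest rise and 3 with the largest fall called in each list, and Atoh1, Gfi1, Sox4, Chga, Hes1 and Dll1. Another gene that the rule names is not reported here. Alternatives changed the pseudocount, filter, scaling, block, absent rows, gene value and samples.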

Additional observations from a re-analysis of the deposited data

Results flagged for a closer look

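In 46 groups of 4 samples of the members, Trim72 and the named genes fitted, 4 groups held a sample that stood far from the rest. For continuous values chance alone would give about 1 group in 20, or 2.30. That rate does not hold for groups with samples at 0. A group with all but 1 sample at 0 is flagged whatever the size of that value. Among the members these were Pax4 in WT sample 2, at 0.554 FPKM with the other WT samples at 0, and Nkx2-2 in MG53-TG sample 2, at 1.98 FPKM with the other MG53-TG samples at 0. Among the other genes they were Numb in WT sample 1, at 13.6 FPKM above 9.16 to 9.80 FPKM, and Hes1 in WT sample 4, at 36.3 FPKM above 31.9 to 32.5 FPKM. Sox4 in WT had a similar shape to Pax4, at 0.463 FPKM in sample 4 with the other WT samples at 0. It was not examined, because its mean was under the filter.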

How the results depend on the processing

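The restriction to annotated boundaries and the fits without MG53-TG samples 3 and 4, or 1 and 2, were chosen after seeing the data. Neurog3 and Pax4 kept their direction and stayed without a call under all alternatives that gave a value, with leave-one-out ranges of -0.36 to -0.08 and 0.11 to 0.34. Neurog3 was at -0.07 under both median-of-ratios scaling and quantile normalization, against -0.22. Pax4 was at 0.97 with a pseudocount of 0.1, against 0.18. Rfx6 ranged from 0.02 to 0.18. Without MG53-TG samples 3 and 4, Rfx6 reversed to -0.07, Pax6 to -0.01 and Hes1 to 0.13. Without samples 1 and 2, Isl1 reversed to 0.28, and Nkx2-2 was called at -1.17, the 1 member called. Pax6 reversed to -0.27 from start rows only, with a leave-one-out range of -0.10 to 0.21. Isl1 reversed to 0.00437 with a pseudocount of 0.1, to 0.02 after quantile normalization and to 0.04 under median-of-ratios scaling, with a leave-one-out range of -0.11 to 0.15. Isl1 had no end rows, so end rows only gave it no value. With samples left out, Nkx2-2 ranged from -1.17 to -0.65 and members called from 0 to 1, and -1.17 and the 1 call came from leaving out MG53-TG sample 2. Nkx2-2 was at -2.63 with a pseudocount of 0.1 and at -0.49 with absent rows as 0. Hes1 reversed to 0.00278 with median-of-ratios scaling. The count of other endocrine transcription factors called was 8 without the filter and 2 with absent rows as 0, against 4, and 3 to 5 with samples left out. Hormones and granins called were 3 from end rows only, against 5, and 5 to 7 with samples left out. The cause was not tested.

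With the replicate number as a block, 2 other endocrine transcription factors were called, and Neurog3 stayed at -0.22 (limma adjusted p = 0.472). Same-numbered samples did not deviate together, with correlations of 0.0895, -0.00295, 0.097 and -0.0597. These values cannot show whether the samples were paired by litter or batch. The study names a paired t test for marker genes in its organoid transcriptomes, but the labels give no pairs. The main fit therefore left pairing out. Members near 0.5 FPKM or listed at 0 are measured too coarsely to show small changes. Adding 1 to the FPKM also draws their log2 fold changes toward 0, so even a large fall would give a small value. With a pseudocount of 0.1, Pax4 went from 0.18 to 0.97 and Nkx2-2 from -0.78 to -2.63.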

Other observations

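Among the other endocrine factors under the filter, Lmx1a, a factor of enterochromaffin cells that was picked out after its values were seen, was listed at 0.464 FPKM in WT sample 1 and at 0 in the other WT samples. In MG53-TG samples 1 to 4 it was listed at 0.603, 0.732, 0.837 and 0.964 FPKM. All MG53-TG values were above the highest WT value (log2 fold change 0.69, SE 0.14, limma adjusted p = 0.00650 in the fit without the filter, where 35.1% of genes were called). In the same fit, 3 more factors of that list under the filter were called, 1 higher and 2 lower. Myt1 was listed at 0 in all WT samples while MG53-TG samples 1 to 3 had 0.651, 0.531 and 0.733 FPKM and sample 4 was missing (limma adjusted p = 0.000176, or 0.0384 with sample 4 at 0, where the groups overlap). Nkx6-3 was at 0.284 to 0.945 FPKM in WT and at 0 in all MG53-TG samples (limma adjusted p = 0.00305). Runx1t1 was at 0.527 and 0.521 FPKM in WT samples 2 and 4, with the other WT samples missing, and at 0 in all MG53-TG samples, and its call rests on that treatment, since with those at 0 the groups overlap (limma adjusted p = 0.000408, or 0.179 with absent rows as 0). Slc18a1, the vesicular monoamine transporter of the same cells, also picked out after its values were seen, rose from between 1.10 and 1.78 FPKM to between 2.46 and 4.13 FPKM (log2 fold change 0.79, SE 0.16, limma adjusted p = 0.00475). Fev, another factor of serotonin cells and likewise chosen after its values were seen, was at 0.222 to 1.32 FPKM in 3 WT samples and 0.158 to 2.01 FPKM in MG53-TG, and it did not pass the test (log2 fold change 0.22, SE 0.38, limma adjusted p = 0.666).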
